A study of Homo sapiens with 24 samples.

Results

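The comparison concerns how the breast cancer lines HCC38 and HCC1395 differed in their RNA response to combined inhibition of EZH2 and AKT. For each gene, the log2 change between COMBO and DMSO libraries in HCC38 was set against the same change in HCC1395, and the difference of these changes, HCC38 minus HCC1395, was tested. Polyadenylated RNA of 12 of the 24 libraries in the series entered the comparison. They form 4 groups of 3 libraries, lettered A to C. HCC38 COMBO and HCC1395 COMBO cells received the EZH2 inhibitor tazemetostat at 5 uM together with the AKT inhibitor ipatasertib at 5 uM, and HCC38 DMSO and HCC1395 DMSO cells received the vehicle. Nothing in the labels says that libraries of a group came from separate cultures, so p-values measure the spread between libraries, which may be technical. No genetic change is given for either line, and the DMSO cells carry neither drug. The time course in the labels is written for another cell line and another assay, so the duration of treatment in these lines is not clear. Of the 58735 gene entries in each table, 19068 passed the low-count filter and were all tested. The gene lists below group genes of known function, were drawn up with earlier results of these data known, and every tested member was counted.

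EZH2 is the catalytic subunit of Polycomb repressive complex 2, which methylates histones and keeps developmental and lineage genes silent. AKT kinases act downstream of PI3K, promote entry into the cell cycle and lipid synthesis, and keep FOXO transcription factors out of the nucleus, so that FOXO targets usually rise when AKT is blocked. HCC38 and HCC1395 are established lines derived from triple-negative breast cancers, tumours that lack oestrogen receptor, progesterone receptor and HER2 amplification. Tazemetostat blocks the methyltransferase activity of EZH2, and ipatasertib competes with ATP in the AKT isoforms.

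The results turn on genes of DNA replication, many of which are targets of E2F factors, and on interferon-stimulated genes, many of which carry an interferon response element. Promoters of the pair of members of each set that had the smallest p for the difference among those holding the letters are shown first, as the 250 bases before a RefSeq transcription start (GRCh38.p14). The E2F letters searched were TTCGCGC and TTGGCGC, whose matches on opposite strands can overlap, and the interferon letters were a pair of GAAA runs spaced by any 2 bases; all were searched on both strands from 250 bases before to 50 bases after the start. The MCM6 stretch lies at chr2:135876444-135876693 on the minus strand and the E2F1 stretch at chr20:33686386-33686635 on the minus strand, with the E2F letters in capitals. The IFIT1 stretch lies at chr10:89392373-89392622 on the plus strand and the MX1 stretch at chr21:41431800-41432049 on the plus strand, with the interferon letters in capitals.
MCM6: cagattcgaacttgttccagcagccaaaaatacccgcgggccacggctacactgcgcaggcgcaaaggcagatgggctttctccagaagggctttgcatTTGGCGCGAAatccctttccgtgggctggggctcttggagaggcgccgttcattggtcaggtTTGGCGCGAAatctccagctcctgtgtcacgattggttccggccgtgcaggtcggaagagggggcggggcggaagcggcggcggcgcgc
E2F1: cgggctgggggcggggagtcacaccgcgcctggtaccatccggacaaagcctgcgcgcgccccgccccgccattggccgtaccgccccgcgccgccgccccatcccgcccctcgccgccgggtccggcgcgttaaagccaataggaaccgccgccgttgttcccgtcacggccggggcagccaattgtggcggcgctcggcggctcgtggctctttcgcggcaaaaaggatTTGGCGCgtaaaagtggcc
IFIT1: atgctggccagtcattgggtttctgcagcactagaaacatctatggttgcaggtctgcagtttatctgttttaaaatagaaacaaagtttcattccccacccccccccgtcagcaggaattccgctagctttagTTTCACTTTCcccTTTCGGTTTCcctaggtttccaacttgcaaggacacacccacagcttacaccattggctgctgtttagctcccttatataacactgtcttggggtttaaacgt
MX1: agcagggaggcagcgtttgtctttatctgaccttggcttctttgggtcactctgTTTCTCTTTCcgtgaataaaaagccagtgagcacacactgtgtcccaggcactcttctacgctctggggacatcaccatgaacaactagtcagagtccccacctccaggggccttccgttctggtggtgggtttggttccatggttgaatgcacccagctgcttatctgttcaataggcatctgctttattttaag
MCM6, a subunit of the replicative helicase, holds 4 matches in overlapping pairs, E2F1 holds 1, IFIT1 holds 2 and MX1 holds 1 before the start shown, which is 1 of 3 listed for that gene. Among the tested genes, 12138 had a promoter in the table. The E2F letters stood in 14 of 33 promoters of the replication list (42.4%), against 9.97% of all 12138. The interferon letters stood in 21 of 31 promoters of the interferon-stimulated list (67.7%), against 3.98% of all. They also stood in 9 of 13 promoters (69.2%) of genes of MHC class I presentation, a list with a median difference of 0.00. A match describes the letters of the window and is not evidence of a bound site.

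The libraries held 33469927 to 51815656 counts. The first principal component (83.9% of the variance) separated the lines and the second (7.8%) separated COMBO from DMSO. HCC38 COMBO library C stood apart from its group, with 7.77% of counts on mitochondrial genes against 4.76% and 5.19% in libraries A and B. HCC1395 DMSO library B held traces of transcripts typical of HCC38: over 22 genes with at least 20 CPM (counts of a gene scaled to the size of its library) in every HCC38 library and a median under 0.05 CPM in HCC1395, it held 176 counts, or 0.284% of the HCC38 level, against 3 and 7 counts in DMSO libraries A and C and 11 to 16 in the COMBO libraries. Over 19 genes chosen the opposite way, HCC38 COMBO libraries held 0.043% to 0.062% of the HCC1395 level and HCC38 DMSO libraries 0.012% to 0.014%. Without HCC1395 DMSO library B, 2305 genes were higher and 2189 lower in the difference, and without HCC38 COMBO library C the counts were 3426 and 2546. Epithelial and receptor genes, picked with their values known, were set against the label: EPCAM averaged 404 CPM in HCC38 COMBO and 504 CPM in HCC38 DMSO, against 4.90 CPM in HCC1395 COMBO and 1.79 CPM in HCC1395 DMSO. CDH1, the gene for E-cadherin, averaged 221 and 239 CPM in HCC38 COMBO and DMSO, against 0.738 and 0.354 CPM in HCC1395 COMBO and DMSO. ESR1, the oestrogen receptor gene, averaged 2.84 CPM in HCC38 COMBO and 1.99 CPM in HCC38 DMSO, and 0.0427 CPM in HCC1395 COMBO and 0.150 CPM in HCC1395 DMSO.

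The combination changed genes in both lines. Fewer genes of DNA replication fell in HCC38 than in HCC1395, where nearly all of them fell. More interferon-stimulated genes fell than rose in HCC38, and most of them rose in HCC1395. Many genes of cholesterol synthesis rose in HCC38, and more fell in HCC1395. Most targets of FOXO rose in both lines. By edgeR's quasi-likelihood test at an adjusted p under 0.05, 5591 of 19068 genes (29.3%) differed in response: 3179 (16.7%) were higher in HCC38 relative to HCC1395 and 2412 (12.6%) were lower. At 2-fold or more these were 868 genes (4.55%) and 1088 genes (5.71%). Within HCC38, 3710 genes rose (19.5%) and 2809 fell (14.7%), of which 1433 (7.52%) and 193 (1.01%) changed by 2-fold or more. Within HCC1395, 4772 genes rose (25.0%) and 4265 fell (22.4%), of which 2194 (11.5%) and 578 (3.03%) changed by 2-fold or more. Over all tested genes the median difference was 0.03 on the log2 scale, with median changes of 0.03 in HCC38 and 0.04 in HCC1395.

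**Figure D1:**
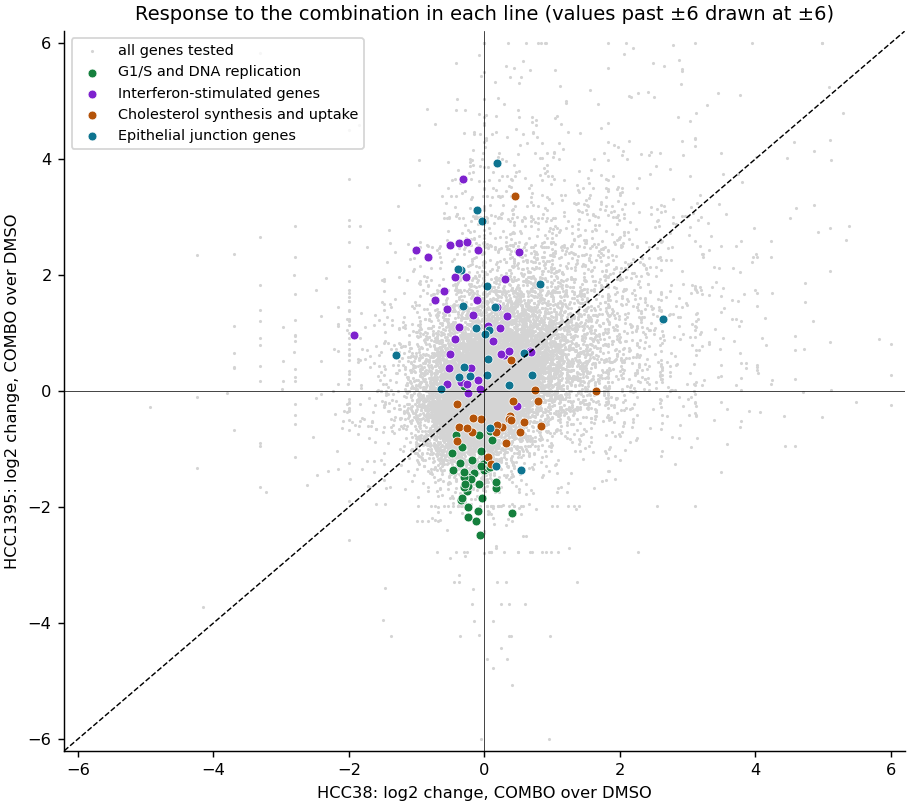
Each point is 1 of 19068 genes, with its log2 change between COMBO and DMSO in HCC38 on the x axis and in HCC1395 on the y axis, and 19 genes past 6 are drawn at the limit; the dashed line marks equal responses. All but 1 of 38 replication genes fell in HCC1395, and the 27 interferon-stimulated genes called lower in the difference lie above the dashed line.

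A difference can arise in several ways, and the called genes were sorted by what each line did. Among the 3179 genes higher in the difference, 1480 (46.6%) fell in HCC1395 without a call in HCC38, and 719 (22.6%) rose in HCC38 without a call in HCC1395. A further 331 (10.4%) rose in HCC38 and fell in HCC1395, which is 1.74% of all tested genes. Among the 2412 genes lower in the difference, 1176 (48.8%) rose in HCC1395 without a call in HCC38, and 390 (16.2%) rose in both lines, by less in HCC38. The 295 genes that fell in HCC38 and rose in HCC1395 made up 12.2% of them and 1.55% of all tested genes. These counts of opposite responses depended on single libraries: without HCC38 COMBO library A the first was 555 and without HCC1395 COMBO library A it was 216, while the second was 187 without HCC38 DMSO library A and 185 without HCC38 DMSO library B. The lines also differed at the start. In DMSO, 14527 genes (76.2%) differed between HCC38 and HCC1395, and these tests share the DMSO libraries with the difference of responses, so levels are given beside each response without relating the tests to each other.

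Replication genes had the highest share of called differences among the lists examined. Of 38 tested genes of G1/S transition and DNA replication, 36 were higher in HCC38 relative to HCC1395 (94.7%, against 16.7% of all genes) and 1 was lower, with a median difference of 1.33. None rose in either line by edgeR or by DESeq2, and at an unadjusted p under 0.05 the count of rising members was 1 in HCC38 and 0 in HCC1395. In HCC38, 14 fell and 24 were not called, with a median change of -0.17. The HCC38 count rested on single libraries: 9 fell without HCC38 DMSO library A, 8 without HCC38 DMSO library C and 7 without HCC38 COMBO library B, and 2 rose without HCC38 COMBO library A. In HCC1395, 37 of the 38 fell, with a median change of -1.45. MCM6 (chr2:135839626-135876426, minus strand) had 135, 133 and 147 CPM in HCC38 COMBO against 144, 148 and 149 CPM in HCC38 DMSO, and the groups overlapped. The HCC1395 libraries held 39.1, 37.8 and 41.4 CPM in COMBO against 170, 166 and 161 CPM in DMSO. Every HCC1395 COMBO library was thus below every HCC1395 DMSO library, and the difference of responses was 1.98 ± 0.11 (log2, SE, adjusted p = 1.44e-09). CDC6, which loads the helicase onto origins, had 104, 109 and 124 CPM in HCC38 COMBO against 126, 120 and 123 CPM in HCC38 DMSO. Values in HCC1395 were 14.2, 13.8 and 15.6 CPM in COMBO against 68.6, 69.1 and 67.6 CPM in DMSO (difference 2.11 ± 0.12, adjusted p = 3.17e-09). The CDC6 groups overlapped in HCC38 and were far apart in HCC1395. CLSPN, the checkpoint mediator claspin, had 16.3, 18.0 and 19.8 CPM in HCC38 COMBO against 19.6, 16.7 and 20.2 CPM in HCC38 DMSO. Its HCC1395 values were 6.24, 4.59 and 5.51 CPM in COMBO against 30.2, 31.9 and 28.8 CPM in DMSO (difference 2.41 ± 0.17, adjusted p = 2.61e-08). Overlap in HCC38 and separation in HCC1395 held for CLSPN too.

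MCM10, another origin-firing factor, fell in both lines by unequal amounts. It had 96.9, 99.5 and 106 CPM in HCC38 COMBO against 119, 120 and 121 CPM in HCC38 DMSO (-0.25 ± 0.08, adjusted p = 0.0245). HCC1395 gave 10.4, 9.0 and 10.3 CPM in COMBO against 45.7, 45.8 and 41.4 CPM in DMSO (-2.17 ± 0.09, adjusted p = 1.21e-11). The groups did not overlap in either line, and the difference was 1.92 ± 0.12 (adjusted p = 8.41e-09). E2F1 itself, whose promoter is shown above and which was chosen after its values were seen, averaged 102 CPM in HCC38 COMBO and 104 CPM in HCC38 DMSO, and 22.4 CPM in HCC1395 COMBO and 80.5 CPM in HCC1395 DMSO (difference 1.81 ± 0.14). The member that ran the other way was the licensing factor CDT1 (-0.38 ± 0.13, adjusted p = 0.0422), and the thymidine kinase gene TK1 had a difference of 0.34 ± 0.14 that missed the threshold (adjusted p = 0.0712); both were singled out after their values were seen. At the start, baseline levels of the list were not on one side: 17 members were higher in HCC38 DMSO and 16 in HCC1395 DMSO. Over all settings tried, 35 to 37 of the members were called higher in the difference.

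Mitotic genes followed with smaller values. Of 34 tested genes of G2/M and mitosis, 13 were higher in the difference (38.2%, against 16.7% of all genes). A single member was lower (2.94%, against 12.6%), and the median was 0.30. Within HCC38, 13 members fell and 2 rose, while 24 fell in HCC1395. In HCC38 8 fell without DMSO library B, 6 rose without COMBO library A, and 17 fell and 0 rose without COMBO library C; no member rose without DMSO library A or B or COMBO library B. CDK1, the mitotic kinase, had 225, 274 and 300 CPM in HCC38 COMBO against 255, 249 and 240 CPM in HCC38 DMSO, with overlapping groups. In HCC1395 libraries it had 78.5, 78.0 and 74.6 CPM in COMBO against 137, 130 and 128 CPM in DMSO (difference 0.88 ± 0.13, adjusted p = 6.99e-05). CCNA2, the gene for cyclin A2, fell in both lines, by 0.32 ± 0.09 in HCC38 and by 0.99 ± 0.09 in HCC1395 (difference 0.67 ± 0.12, adjusted p = 4.90e-04). MKI67, a proliferation marker, had 101, 127 and 114 CPM in HCC38 COMBO against 94.3, 89.5 and 94.0 CPM in HCC38 DMSO (0.30 ± 0.14, adjusted p = 0.121). The HCC1395 libraries held 325, 249 and 386 CPM in COMBO against 482, 539 and 368 CPM in DMSO (-0.53 ± 0.14, adjusted p = 0.00529), with 1 COMBO library above 1 DMSO library. The MKI67 difference was 0.83 ± 0.20 (adjusted p = 0.00518).

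Cell cycle inhibitors did not share a direction. CDKN1A, the gene for p21, had 114, 99.3 and 86.0 CPM in HCC38 COMBO against 27.4, 28.0 and 29.1 CPM in HCC38 DMSO. Values in HCC1395 were 35.6, 37.4 and 33.5 CPM in COMBO against 19.9, 19.9 and 20.9 CPM in DMSO. It rose in both lines without overlap of groups, and by more in HCC38 (difference 1.01 ± 0.14, adjusted p = 3.54e-05). CDKN1B, the gene for p27 and a target of FOXO, had a change of -0.04 ± 0.07 in HCC38 (adjusted p = 0.720) and rose by 0.70 ± 0.07 in HCC1395 (difference -0.74 ± 0.10, adjusted p = 3.27e-05). CDKN1C, the gene for p57, rose in both lines, to 7.84 ± 0.75 CPM in HCC38 COMBO against 1.93 ± 0.29 CPM in HCC38 DMSO and to 6.27 ± 0.74 CPM in HCC1395 COMBO against 0.713 ± 0.165 CPM in HCC1395 DMSO (SD, n = 3 each). Its difference was -1.11 ± 0.26 (adjusted p = 0.00372). Of 5 tested CDK inhibitor genes, 1 was higher (20%, against 16.7% of all genes) and 2 were lower (40.0%, against 12.6%) in the difference.

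**Figure D2:**
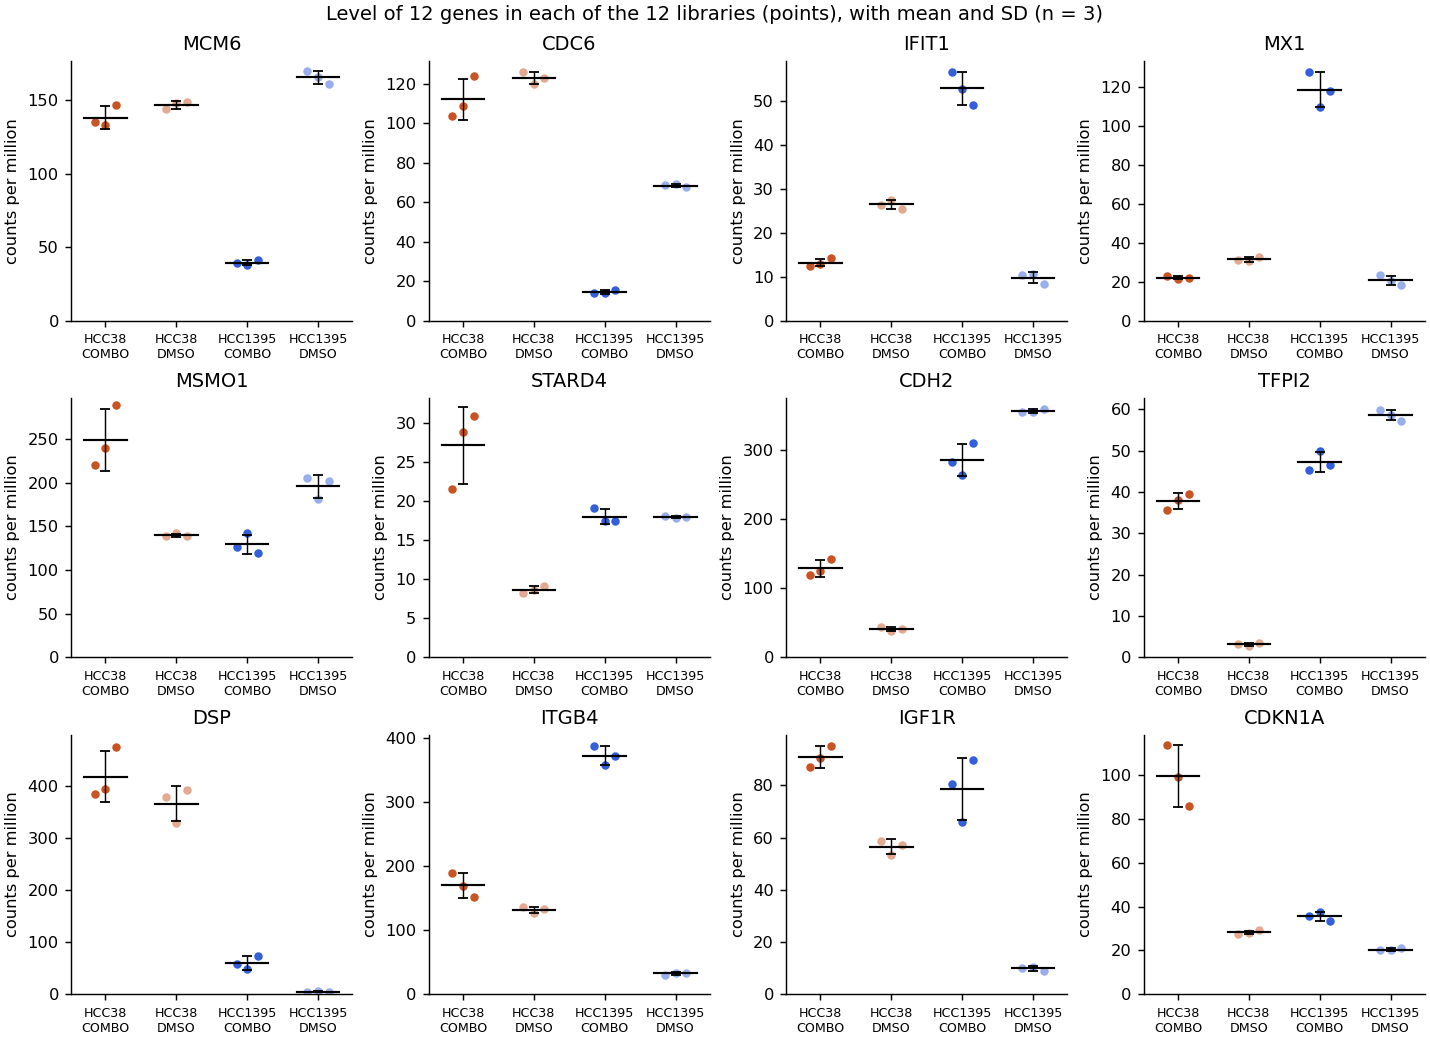
CPM of 12 genes in each of the 12 libraries, with HCC38 COMBO, HCC38 DMSO, HCC1395 COMBO and HCC1395 DMSO from left to right; points are libraries, lines are means and bars are SDs (n = 3). MCM6 and CDC6 are lowest in HCC1395 COMBO, where IFIT1 and MX1 are highest, and TFPI2 and CDH2 are higher in HCC38 COMBO than in HCC38 DMSO.

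Interferon-stimulated genes moved apart in the lines. Of 39 tested members, 27 were lower in HCC38 relative to HCC1395 (69.2%, against 12.6% of all genes) and none was higher by edgeR; the median difference was -1.27. In HCC38, 12 fell and 3 rose, with a median change of -0.24 (7 rose without HCC38 COMBO library A). In HCC1395, 30 rose and none fell, with a median change of 1.10, and 10 genes fell in HCC38 and rose in HCC1395. The counts of 0 in the difference and in HCC1395 were also 0 by DESeq2 and at an unadjusted p under 0.05. IFIT1 (chr10:89392546-89406486, plus strand), whose product binds foreign RNA, had 12.5, 13.0 and 14.2 CPM in HCC38 COMBO against 26.4, 27.6 and 25.5 CPM in HCC38 DMSO. HCC1395 gave 56.8, 52.9 and 49.3 CPM in COMBO against 10.4, 10.7 and 8.31 CPM in DMSO. The groups separated in both lines in opposite directions, with a fall of 1.0 ± 0.10 in HCC38, a rise of 2.43 ± 0.11 in HCC1395 and a difference of -3.44 ± 0.15 (adjusted p = 7.84e-11). IFIT1 overlaps LIPA on the other strand, and the strand setting of the counting is not given in the sources used here.

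MX1 (chr21:41420304-41459214, plus strand), an antiviral GTPase gene, had 23.0, 21.2 and 21.9 CPM in HCC38 COMBO against 31.2, 30.5 and 32.8 CPM in HCC38 DMSO. In HCC1395 libraries it had 128, 110 and 118 CPM in COMBO against 23.2, 20.5 and 18.5 CPM in DMSO. The MX1 groups separated in opposite directions as well (difference -3.03 ± 0.14, adjusted p = 1.30e-10). OAS2, an RNA-sensing synthetase gene, had 7.82, 8.16 and 8.42 CPM in HCC38 COMBO against 9.74, 9.40 and 10.1 CPM in HCC38 DMSO, a change that missed the threshold (-0.26 ± 0.11, adjusted p = 0.0674). Its HCC1395 values were 103, 83.0 and 103 CPM in COMBO against 17.6, 15.5 and 15.7 CPM in DMSO (difference -2.82 ± 0.14, adjusted p = 7.66e-10). IFIT2 fell by 0.60 ± 0.10 in HCC38 and rose by 1.71 ± 0.11 in HCC1395 (difference -2.31 ± 0.15, adjusted p = 8.79e-09). Over all settings, 25 to 31 members were called lower in the difference. In DMSO, 22 members were higher in HCC38 and 14 in HCC1395, so the starting levels were not on one side.

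Genes of antigen presentation and inflammation, some of which respond to interferon, gave calls in both directions. Of 17 tested genes of MHC class I presentation, 3 were higher (17.6%, against 16.7% of all genes) and 6 lower (35.3%, against 12.6%) in the difference, with a median of 0.00. There were 5 higher without HCC38 COMBO library C and 3 lower without HCC1395 COMBO library B. HLA-E had 197, 182 and 141 CPM in HCC38 COMBO against 164, 180 and 166 CPM in HCC38 DMSO, with overlap, and 256, 266 and 245 CPM in HCC1395 COMBO against 124, 123 and 125 CPM in HCC1395 DMSO (difference -1.02 ± 0.14, adjusted p = 4.23e-05). TAP1, a peptide transporter gene, fell by 0.81 ± 0.11 in HCC38 and had a change of -0.12 ± 0.11 in HCC1395 (difference -0.69 ± 0.15, adjusted p = 0.00249). Among 29 tested NF-kB and inflammatory genes, 6 were higher (20.7%) and 3 lower (10.3%), shares near those of all genes. The chemokine gene CCL5 fell by 0.69 ± 0.13 in HCC38 and rose by 0.98 ± 0.13 in HCC1395 (difference -1.67 ± 0.18, adjusted p = 3.19e-06). The neutrophil chemokine gene CXCL8 ran the other way, with a change of 0.29 ± 0.11 in HCC38 (adjusted p = 0.0568) and a fall of 1.08 ± 0.11 in HCC1395 (difference 1.37 ± 0.16, adjusted p = 5.64e-06). Leukocyte markers, 15 genes in all, summed to 14.1 to 17.0 CPM in HCC38 COMBO and 19.5 to 22.9 CPM in HCC38 DMSO, and to 7.70 to 8.56 CPM in HCC1395 COMBO and 7.0 to 7.17 CPM in HCC1395 DMSO, and 3 or 4 of them were at 0 in each group. The monocyte marker CD14, named after its values were seen, averaged 3.05 CPM in HCC38 COMBO and 8.75 CPM in HCC38 DMSO, and 0.509 CPM in HCC1395 COMBO and 0.404 CPM in HCC1395 DMSO. The pan-leukocyte marker PTPRC averaged 0.181 CPM in HCC38 COMBO and 0.0192 CPM in HCC38 DMSO, and 0.565 CPM in HCC1395 COMBO and 0.593 CPM in HCC1395 DMSO. The part of such cells in the interferon and inflammatory values was not tested.

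**Figure D3:**
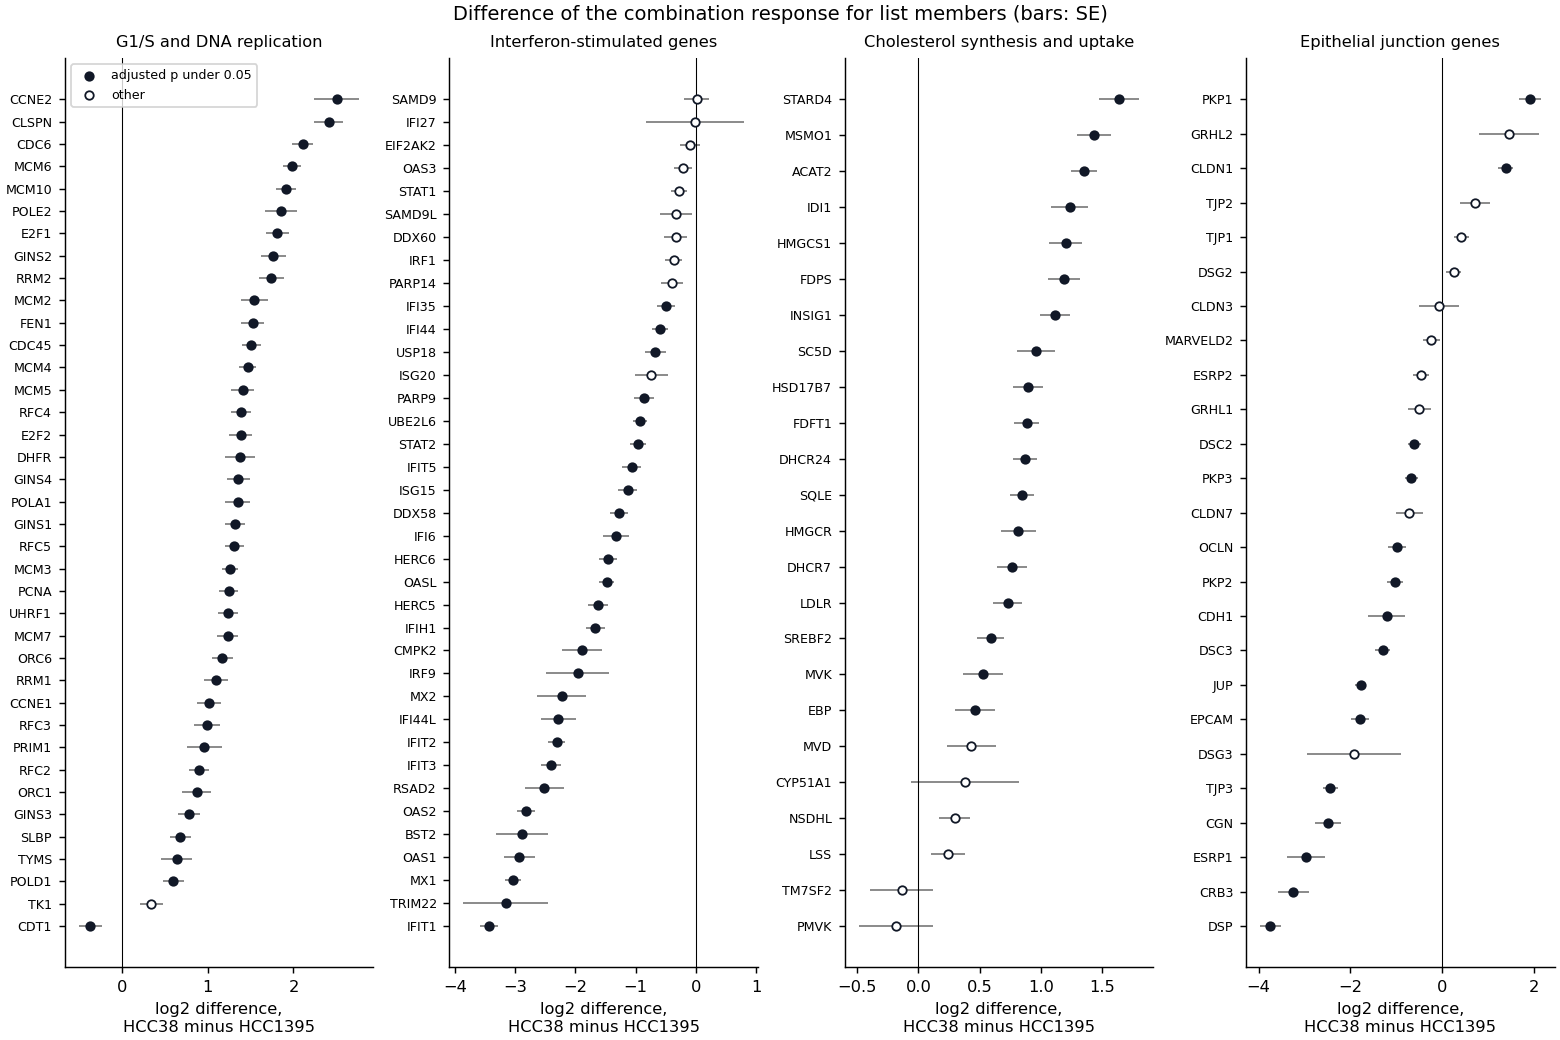
Difference of the combination response (log2, HCC38 minus HCC1395, x axis) for members of 4 lists, with SE bars; filled points passed an adjusted p under 0.05 and open points did not. Members with a group at or under 3 counts are left out (0 of 38, 2 of 39, 1 of 25 and 1 of 26 from left to right); replication members lie right of 0 except CDT1, and called interferon-stimulated members all lie left of 0.

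Sterol genes also moved apart, with more of them rising in HCC38 and more falling in HCC1395. Of 25 tested genes of cholesterol synthesis and uptake, 18 were higher in the difference (72.0%, against 16.7% of all genes), with a median of 0.82. None was lower by edgeR (against 12.6% of all genes), and the count of lower members was also 0 by DESeq2 and at an unadjusted p under 0.05. In HCC38, 12 rose and 2 fell (5 fell without HCC38 COMBO library A); in HCC1395, 1 rose and 17 fell; and 8 rose in HCC38 and fell in HCC1395. MSMO1 (chr4:165327623-165343160, plus strand), a sterol demethylation enzyme gene, had 220, 240 and 289 CPM in HCC38 COMBO against 139, 142 and 139 CPM in HCC38 DMSO. The HCC1395 libraries held 126, 142 and 120 CPM in COMBO against 205, 181 and 202 CPM in DMSO. Neither line's groups overlapped, and the difference was 1.43 ± 0.14 (adjusted p = 9.80e-07). STARD4, a sterol carrier gene, had 21.6, 28.9 and 30.9 CPM in HCC38 COMBO against 8.18, 8.63 and 9.13 CPM in HCC38 DMSO. Its HCC1395 libraries overlapped, at 19.1, 17.4 and 17.5 CPM in COMBO against 18.1, 17.8 and 17.9 CPM in DMSO (difference 1.64 ± 0.17, adjusted p = 1.46e-06). For ACAT2 and FDPS, enzymes of the same pathway, the HCC38 changes of 0.09 ± 0.08 and 0.05 ± 0.09 were not called, and the genes fell in HCC1395 by 1.26 ± 0.08 and by 1.14 ± 0.09. Their differences were 1.35 ± 0.11 for ACAT2 and 1.19 ± 0.13 for FDPS (adjusted p = 9.88e-08 and 3.12e-06).

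Of 16 tested genes of fatty acid synthesis, 11 were higher in the difference (68.8%, against 16.7% of all genes), with a median of 0.43. None was lower by edgeR (against 12.6% of all genes), with 0 lower also by DESeq2 and at an unadjusted p under 0.05. In HCC38, 5 rose and 5 fell, and in HCC1395, 1 rose and 10 fell. The higher count was 6 without HCC38 DMSO library B and 7 without HCC1395 DMSO library B or C or HCC1395 COMBO library A or B. The count falling in HCC38 was 2 without HCC38 DMSO library A or C or COMBO library B, and 3 without HCC1395 DMSO library A. SCD, the stearoyl-CoA desaturase gene, had 320, 310 and 344 CPM in HCC38 COMBO against 258, 234 and 277 CPM in HCC38 DMSO, and 1036, 978 and 1118 CPM in HCC1395 COMBO against 1624, 1639 and 1666 CPM in HCC1395 DMSO. The groups did not overlap and moved in opposite directions (difference 0.99 ± 0.12, adjusted p = 6.84e-06). The desaturase genes FADS1 and FADS2 gave 1.18 ± 0.10 and 1.49 ± 0.12; they overlap each other on opposite strands and may share reads. ACSS2, which makes acetyl-CoA from acetate, rose in both lines, by 1.23 ± 0.07 in HCC38 and by 0.51 ± 0.07 in HCC1395 (difference 0.72 ± 0.10, adjusted p = 5.71e-05). Most glycolysis genes, another output of PI3K and AKT, fell in both lines: 12 fell and 1 rose of 21 in HCC38 and 15 fell and 1 rose in HCC1395, with 7 higher (33.3%, against 16.7% of all genes) and 4 lower (19.0%, against 12.6%) in the difference. The glycolysis counts were 11 higher without HCC38 COMBO library C, 4 higher without HCC1395 COMBO library A, and 2 lower without HCC38 DMSO library C, HCC38 COMBO library B or HCC1395 DMSO library A. Ribosome biogenesis genes gave 24 lower of 28 in HCC38 and 22 lower in HCC1395, with 8 higher and 3 lower in the difference (28.6% and 10.7%, against 16.7% and 12.6% of all genes).

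Epithelial and mesenchymal genes moved in ways that brought some levels in the lines nearer to each other and others further apart. Of 26 tested epithelial junction genes, 25 were higher in HCC38 DMSO than in HCC1395 DMSO. In the difference 13 were lower (50%, against 12.6% of all genes) and 2 higher (7.69%, against 16.7%), with a median of -0.85. Of the 26, 6 rose and 6 fell in HCC38, against 13 rising and 1 falling in HCC1395. The count falling in HCC38 was 3 without HCC38 DMSO library B or C. DSP (chr6:7541575-7586717, plus strand), which encodes the desmosomal protein desmoplakin, had 386, 394 and 476 CPM in HCC38 COMBO against 379, 329 and 392 CPM in HCC38 DMSO, with overlap. Values in HCC1395 were 58.0, 47.1 and 72.8 CPM in COMBO against 3.09, 4.96 and 3.59 CPM in DMSO. All HCC1395 COMBO libraries were above all DMSO libraries, and below all HCC38 libraries (difference -3.75 ± 0.23, adjusted p = 5.77e-09). HCC1395 DMSO library B, with its traces of HCC38 transcripts, had the highest of the DMSO values, and without it the DSP difference was -4.01. CRB3, a polarity gene, had 46.6, 40.0 and 32.7 CPM in HCC38 COMBO against 45.5, 43.6 and 40.3 CPM in HCC38 DMSO, and 1.58, 2.04 and 1.61 CPM in HCC1395 COMBO against 0.191, 0.319 and 0.0854 CPM in HCC1395 DMSO (difference -3.24 ± 0.34, adjusted p = 2.12e-06, and -3.79 without that library). The junction genes TJP3 and JUP gave -2.43 ± 0.17 and -1.77 ± 0.12. The members higher in the difference, named after their values were seen, were the claudin gene CLDN1 (1.39 ± 0.17) and the plakophilin gene PKP1 (1.91 ± 0.24).

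Mesenchymal genes gave the reverse picture. Of 23 tested mesenchymal genes of the epithelial-mesenchymal transition (EMT), 20 were lower in HCC38 DMSO than in HCC1395 DMSO. In the difference 14 were higher (60.9%, against 16.7% of all genes), with a median of 0.88. A single member was lower (4.35%, against 12.6%), and 3 were lower without HCC38 COMBO library A. Of the 23, 13 rose and 3 fell in HCC38, and 5 rose and 10 fell in HCC1395. CDH2 (chr18:27950966-28177446, minus strand), the gene for N-cadherin, had 119, 124 and 142 CPM in HCC38 COMBO against 44.1, 38.4 and 40.6 CPM in HCC38 DMSO. HCC1395 gave 282, 263 and 310 CPM in COMBO against 355, 354 and 359 CPM in DMSO. The groups separated in opposite directions (difference 1.97 ± 0.12, adjusted p = 9.57e-09), and HCC38 COMBO remained below HCC1395 COMBO. SPARC, a matricellular gene, was level in HCC38 with means of 180 CPM in COMBO and 177 CPM in DMSO. In HCC1395 it had 2.23, 3.10 and 2.41 CPM in COMBO against 7.91, 8.55 and 6.58 CPM in DMSO. Its difference was 1.59 ± 0.16 (edgeR adjusted p = 1.22e-06), and its levels in the lines moved further apart. The fibrillar collagen gene COL5A1 had a change of 0.20 ± 0.11 in HCC38 (adjusted p = 0.171) and fell by 0.94 ± 0.11 in HCC1395. The member called lower in the difference was the gelatinase gene MMP2, which rose in both lines and by more in HCC1395 (difference -0.46 ± 0.10). MMP2 was named after its values were seen. Fibroblast and endothelial markers, 12 genes in all, summed to 35.8 to 38.4 CPM in HCC38 COMBO and 25.2 to 26.1 CPM in HCC38 DMSO, and to 64.3 to 76.3 CPM in HCC1395 COMBO and 63.2 to 68.0 CPM in HCC1395 DMSO. Their part in these results was not tested.

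Luminal and basal markers showed both directions. Of 19 tested luminal markers, 3 were higher (15.8%) and 7 lower (36.8%) in the difference, against 16.7% and 12.6% of all genes. The share called higher was thus near that of all genes. The higher count was 1 without HCC38 DMSO library A, without any 1 of the HCC1395 DMSO libraries, or without HCC1395 COMBO library A or B. Of the 19 markers, 8 rose in HCC38 against 13 in HCC1395. ALDH1A3, an aldehyde dehydrogenase gene of luminal progenitors, had 209, 205 and 208 CPM in HCC38 COMBO against 280, 266 and 276 CPM in HCC38 DMSO. In HCC1395 libraries it had 261, 234 and 262 CPM in COMBO against 43.2, 45.6 and 42.8 CPM in DMSO, and the groups separated in opposite directions (difference -2.93 ± 0.11, adjusted p = 9.94e-12). The luminal keratin genes KRT8 and KRT18, which overlap on opposite strands, gave differences of -2.30 ± 0.17 and -0.99 ± 0.14. KRT8 fell by 0.39 ± 0.12 in HCC38 and rose by 1.91 ± 0.13 in HCC1395. KRT18 rose in both lines, by 0.43 ± 0.095 in HCC38 and by 1.42 ± 0.10 in HCC1395. GATA3, the luminal transcription factor gene, rose in both lines, with 97.0 ± 3.18 CPM in HCC38 COMBO against 49.1 ± 1.34 CPM in HCC38 DMSO, and 4.0 ± 0.63 CPM in HCC1395 COMBO against 2.46 ± 0.29 CPM in HCC1395 DMSO (SD, n = 3 each). Its difference was 0.29 ± 0.16 (adjusted p = 0.204). Of 25 tested basal markers, 7 were higher (28.0%) and 10 lower (40.0%), against 16.7% and 12.6% of all genes. ITGB4 (chr17:75721328-75757818, plus strand), an integrin gene of hemidesmosomes, had 189, 168 and 151 CPM in HCC38 COMBO against 135, 126 and 133 CPM in HCC38 DMSO. The HCC1395 libraries held 387, 358 and 371 CPM in COMBO against 29.9, 32.8 and 33.3 CPM in DMSO. It rose in both lines without overlap, and by more in HCC1395 (difference -3.17 ± 0.12, adjusted p = 2.75e-11). The growth factor receptor gene EGFR had 158, 164 and 200 CPM in HCC38 COMBO against 63.1, 51.9 and 63.9 CPM in HCC38 DMSO, and overlapping HCC1395 groups of 163, 150 and 211 CPM in COMBO and 203, 217 and 185 CPM in DMSO (difference 1.75 ± 0.18, adjusted p = 1.54e-06).

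The direct targets of the drugs were compared next. EZH2 had 41.1, 45.8 and 53.0 CPM in HCC38 COMBO against 46.4, 47.4 and 47.3 CPM in HCC38 DMSO, with overlapping groups. In HCC1395 it had 75.8, 73.1 and 72.5 CPM in COMBO against 142, 136 and 134 CPM in DMSO (difference 0.88 ± 0.13, adjusted p = 5.22e-05). The inhibitor acts on the enzyme, so these values do not measure its effect on EZH2 activity. The PRC2 subunit genes SUZ12 and RBBP7 were not called in HCC38 and fell in HCC1395 (differences 0.74 ± 0.16 and 0.57 ± 0.11). EZH1, the paralog of EZH2, rose in both lines, by 0.63 ± 0.11 in HCC38 and by 0.89 ± 0.11 in HCC1395 (difference -0.26 ± 0.16, adjusted p = 0.239). Of 13 tested PRC2 genes, 6 were higher (46.2%, against 16.7% of all genes) and 1 lower (7.69%, against 12.6%) in the difference, and 4 to 7 were higher over all settings. AKT1 had a difference of 0.39 ± 0.11 (adjusted p = 0.0173), with changes of -0.09 ± 0.08 in HCC38 and -0.47 ± 0.08 in HCC1395. AKT2, named after its values were seen, gave 0.06 ± 0.17 (adjusted p = 0.836).

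Many developmental genes that Polycomb silences in other tissues rose in both lines. Of 47 tested developmental regulators, 23 rose and 7 fell in HCC38 (4 fell without HCC38 DMSO library A), and 34 rose and 3 fell in HCC1395. In the difference 18 were lower (38.3%, against 12.6% of all genes) and 7 higher (14.9%, against 16.7%), with a median of -0.63. BMP7, a morphogen gene, had 27.7, 22.8 and 21.0 CPM in HCC38 COMBO against 24.3, 24.5 and 23.0 CPM in HCC38 DMSO, with overlap, and 6.04, 5.81 and 4.50 CPM in HCC1395 COMBO against 1.42, 1.36 and 0.939 CPM in HCC1395 DMSO (difference -2.15 ± 0.22, adjusted p = 1.50e-06). The homeobox genes DLX2 and IRX5 fell in HCC38, by 0.53 ± 0.17 and by 1.17 ± 0.12, and rose in HCC1395, by 1.45 ± 0.16 and 0.29 ± 0.12. LHX2, another homeobox gene, rose by 1.44 ± 0.13 in HCC38 and had a change of -0.18 ± 0.12 in HCC1395 (difference 1.63 ± 0.17, adjusted p = 2.27e-06). SOX2, a stem cell factor gene, had 0 counts in every HCC38 library, so no change can be given there; in HCC1395 it had 5.45, 5.62 and 3.84 CPM in COMBO against 0.0821, 0.232 and 0.712 CPM in DMSO. CCND2, the gene for cyclin D2, was at or near 0 in HCC38, with at most 0.0671 CPM, while it had 18.1, 17.8 and 15.9 CPM in HCC1395 COMBO against 0.520, 0.928 and 0.825 CPM in HCC1395 DMSO.

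Most targets of FOXO and feedback genes of PI3K signalling rose in both lines, and calls in the difference went both ways. Of 34 tested members, 25 rose and 1 fell in HCC38, and 26 rose and 3 fell in HCC1395. In the difference 4 were higher (11.8%) and 6 lower (17.6%), with a median of -0.10, against 16.7% and 12.6% of all genes; 8 were higher without HCC38 COMBO library A. The FOXO letters GTAAACA stood in 7 of 29 promoters of this list (24.1%), against 3.58% of all. PIK3IP1, an inhibitor of PI3K, had 5.44, 4.78 and 3.42 CPM in HCC38 COMBO against 0.679, 0.771 and 0.840 CPM in HCC38 DMSO, and 75.5, 72.3 and 67.8 CPM in HCC1395 COMBO against 9.36, 10.6 and 10.1 CPM in HCC1395 DMSO. It rose in both lines without overlap, and the difference was -0.27 ± 0.24 (adjusted p = 0.429). The receptor gene IGF1R (chr15:98648539-98964530, plus strand) had 87.0, 90.4 and 95.2 CPM in HCC38 COMBO against 58.7, 53.2 and 57.3 CPM in HCC38 DMSO. In HCC1395 it had 80.4, 66.1 and 89.7 CPM in COMBO against 10.1, 10.4 and 8.82 CPM in DMSO. It rose in both lines, by more in HCC1395, and the COMBO libraries of the lines overlapped (difference -2.32 ± 0.15, adjusted p = 1.24e-08). The arrestin gene TXNIP and the ubiquitin ligase gene FBXO32 also rose in both lines, by more in HCC1395 (differences -1.56 ± 0.12 and -1.21 ± 0.10). SESN3, a stress-response gene, ran the other way: it had 4.15, 5.12 and 7.06 CPM in HCC38 COMBO against 0.877, 0.830 and 0.980 CPM in HCC38 DMSO, and an HCC1395 change of 0.25 ± 0.12 that was not called (difference 2.34 ± 0.24, adjusted p = 1.60e-06).

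Genes of the BCL2 family, which set the threshold for cell death, included a wide difference in BMF. This death-promoting member had 0.461, 0.849 and 0.441 CPM in HCC38 COMBO against 0.509, 0.356 and 0.476 CPM in HCC38 DMSO, with overlap. In HCC1395 it had 103, 93.5 and 103 CPM in COMBO against 12.1, 11.4 and 11.1 CPM in DMSO (difference -2.71 ± 0.31, adjusted p = 5.95e-06). HCC38 thus stayed under 1 CPM of BMF in every library. BBC3, the gene for PUMA, rose in both lines, by 1.07 ± 0.23 in HCC38 and 1.71 ± 0.22 in HCC1395 (difference -0.64 ± 0.32, adjusted p = 0.143). BIK and BOK were lower in the difference (-1.42 ± 0.31 and -1.24 ± 0.22), and PMAIP1, the gene for NOXA, was higher (0.71 ± 0.14, adjusted p = 9.42e-04). Of 11 death-promoting genes tested, 1 was higher (9.09%, against 16.7% of all genes) and 3 were lower (27.3%, against 12.6%) in the difference, with 5 lower without HCC38 COMBO library A. Of 9 anti-apoptotic genes, 4 were higher (44.4%, against 16.7% of all genes): BCL2, MCL1, and BIRC2 and BIRC3, which lie outside the BCL2 family. None of the 9 was lower by edgeR (against 12.6% of all genes), with 0 lower also by DESeq2 and at an unadjusted p under 0.05. Among these BCL2 had 3.88, 3.55 and 3.84 CPM in HCC38 COMBO against 1.42, 0.801 and 1.40 CPM in HCC38 DMSO, and 3.96, 3.66 and 4.47 CPM in HCC1395 COMBO against 2.93, 2.17 and 3.47 CPM in HCC1395 DMSO (difference 1.14 ± 0.29, adjusted p = 0.00643). MCL1 rose in HCC38 by 0.36 ± 0.07 and had a change of 0.00 ± 0.07 in HCC1395.

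Genes with opposite responses and the greatest differences came from no single list. TFPI2 (chr7:93885396-93890991, minus strand), a matrix-bound protease inhibitor gene, had 35.7, 38.1 and 39.6 CPM in HCC38 COMBO against 3.31, 2.73 and 3.42 CPM in HCC38 DMSO. In HCC1395 it had 45.4, 50 and 46.6 CPM in COMBO against 59.9, 58.7 and 57.3 CPM in DMSO. The groups separated in opposite directions (difference 3.89 ± 0.14, adjusted p = 9.94e-12). RGS4, a regulator of G protein signalling, had 20, 22 and 24.5 CPM in HCC38 COMBO against 3.74, 2.85 and 2.91 CPM in HCC38 DMSO, and 1.33, 1.36 and 1.16 CPM in HCC1395 COMBO against 2.85, 3.07 and 3.39 CPM in HCC1395 DMSO (difference 4.07 ± 0.21, adjusted p = 7.66e-10). The DMSO libraries of the lines overlapped for RGS4, and the COMBO libraries did not. The amino acid transporter gene SLC7A8 and the basement membrane gene NID2 rose in HCC38 and fell in HCC1395 too (3.56 ± 0.24 and 3.96 ± 0.30).

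In the other direction, the protease gene KLK10 had 23.2, 21.7 and 19.2 CPM in HCC38 COMBO against 40.0, 42.3 and 41.2 CPM in HCC38 DMSO, and 2.16, 2.02 and 2.06 CPM in HCC1395 COMBO against 0.410, 0.290 and 0.342 CPM in HCC1395 DMSO (difference -3.51 ± 0.20, adjusted p = 3.50e-09). CP, the ceruloplasmin gene, had 0.680, 0.827 and 0.883 CPM in HCC38 COMBO against 2.41, 2.14 and 2.13 CPM in HCC38 DMSO, and 16.6, 13.2 and 17.4 CPM in HCC1395 COMBO against 3.56, 4.67 and 4.21 CPM in HCC1395 DMSO (difference -3.40 ± 0.24, adjusted p = 2.61e-08). All of these KLK10 and CP groups were separate within each line. ANGPT1, the angiopoietin gene, fell by 2.02 ± 0.16 in HCC38 and rose by 1.05 ± 0.12 in HCC1395 (difference -3.08 ± 0.20, adjusted p = 9.57e-09). The basement membrane collagen gene COL4A5 was level in HCC38, at means of 60.9 CPM in COMBO and 60.1 CPM in DMSO, and had 3.62, 3.16 and 3.90 CPM in HCC1395 COMBO against 0.137, 0.290 and 0.0854 CPM in HCC1395 DMSO (difference -4.34 ± 0.26, adjusted p = 5.86e-09, and -4.98 without HCC1395 DMSO library B). Most of the other extreme differences rested on a group at or near 0: 7 of the 12 highest and 10 of the 12 lowest had a group with at most 3 counts in all. For these a bound was taken against 3 counts over the 3 libraries of the lower group. ACKR3, a scavenger receptor gene for CXCL12, had 28 counts in HCC38 COMBO and 0 in HCC38 DMSO and was at least 8.35-fold higher in COMBO. It averaged 109.5 CPM in HCC1395 COMBO and 130 CPM in HCC1395 DMSO. The part of the traces of HCC1395 transcripts in these 28 counts was not tested, and the bound does not allow for it. VGLL3, a cofactor of TEAD factors, had 50 counts in HCC1395 COMBO and 0 in HCC1395 DMSO and was at least 13.6-fold higher in COMBO; in HCC38 it had 6.46, 9.95 and 9.79 CPM in COMBO against 2.43, 1.51 and 2.18 CPM in DMSO.

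**Figure D4:**
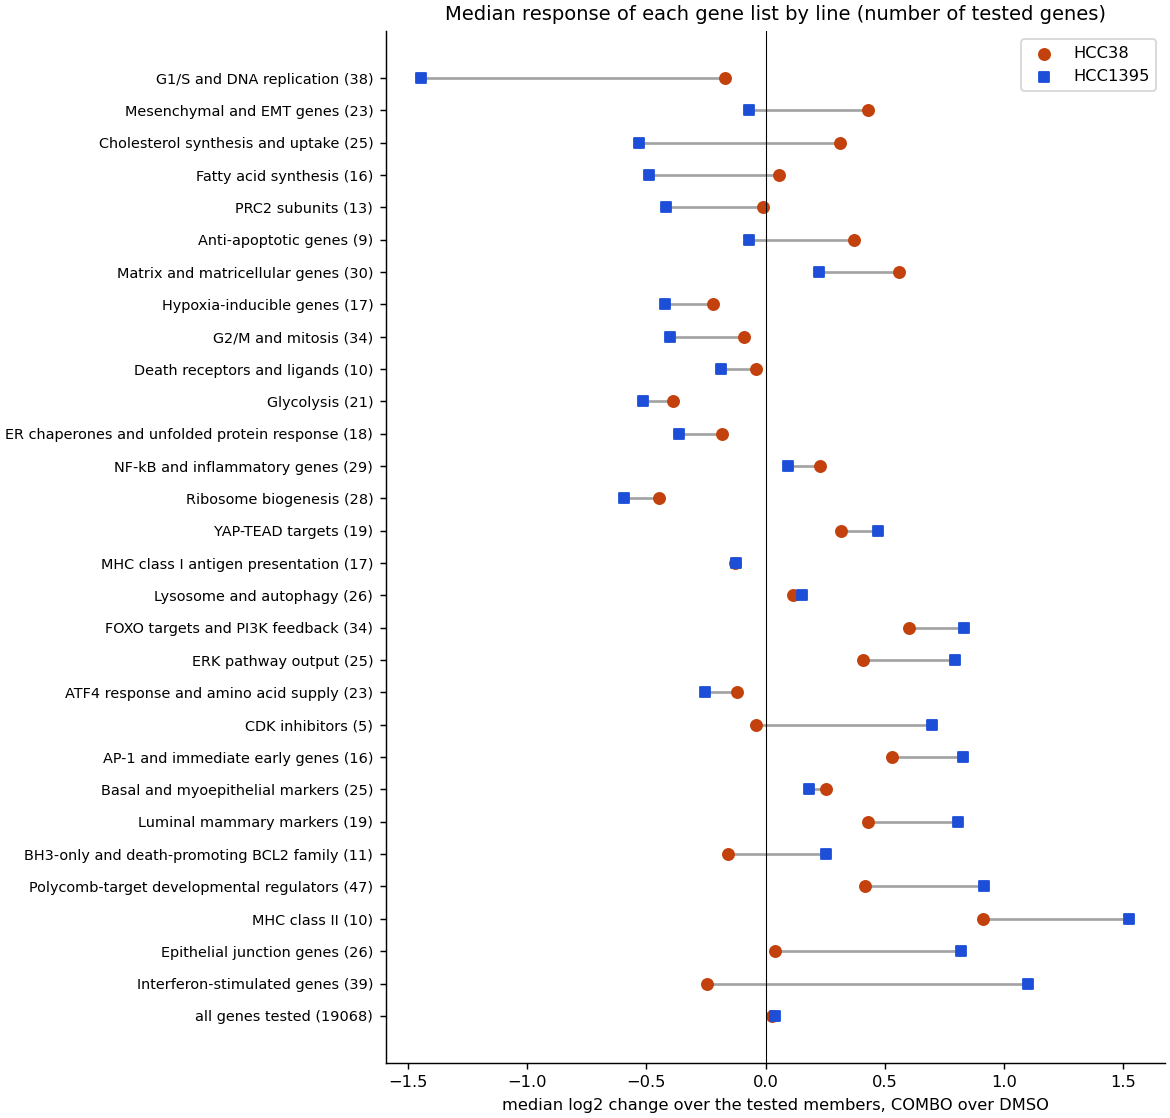
Median log2 change between COMBO and DMSO (x axis) over the tested members of each list in HCC38 (circles) and HCC1395 (squares), with the number of members in brackets and all tested genes at the bottom. The widest gaps between the lines are those of replication genes, at -0.17 in HCC38 and -1.45 in HCC1395, and of interferon-stimulated genes, at -0.24 in HCC38 and 1.10 in HCC1395; FOXO targets lie at 0.60 in HCC38 and 0.83 in HCC1395.

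Other groups of the series place these values. HCC1937, another breast cancer line of the series with 3 COMBO and 3 DMSO libraries of its own, shared no library with the comparison. There all 38 replication genes fell under the combination (median -0.88), 7 interferon-stimulated genes rose and 19 fell of 39 (median -0.21), and 6 cholesterol genes rose and 6 fell of 25. FOXO targets gave 26 higher and 4 lower of 34 in HCC1937. In HCC1395 the single agents were measured against the same DMSO libraries as the combination, so the following values share their reference. The AKT inhibitor alone lowered 37 replication genes and raised none (median -1.38), and the EZH2 inhibitor alone lowered 5 (median -0.08). Interferon-stimulated genes gave 24 higher and 1 lower with the AKT inhibitor alone and 21 higher and 0 lower with the EZH2 inhibitor alone. MCM6 changed by -1.64 ± 0.06 with the AKT inhibitor alone and by -0.22 ± 0.06 with the EZH2 inhibitor alone in HCC1395, and by -0.83 ± 0.06 with the combination in HCC1937. DSP rose by 3.10 ± 0.16 with the EZH2 inhibitor alone and by 0.74 ± 0.17 with the AKT inhibitor alone in HCC1395, and had a change of -0.05 ± 0.12 with the combination in HCC1937. The series holds no single-agent libraries of HCC38, so the share of each drug in the HCC38 response cannot be told apart.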

How the data were processed

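RNA-seq read counts per gene of 12 libraries, 3 in each of 4 groups, were analysed as deposited by the authors, 1 raw count table per library. Per the submitters' processing notes, reads were handled with fastp, aligned with HISAT2 2.0.5 to hg38 and analysed with DESeq2; no source used here gives the counter, its annotation or its use of strand, so overlapping and antisense genes may share reads. Counts were tested with edgeR 4.0.16 (limma 3.58.1, R 4.3.3): filterByExpr with a minimum count of 10, TMM scaling, and the quasi-likelihood test (two-sided) on 1 mean per group with 8 residual degrees of freedom. P-values were adjusted over all 19068 tested genes (Benjamini-Hochberg) and called under 0.05. CPM values are counts scaled to each library's TMM-adjusted total, and errors are SEs of log2 values unless an SD is given. HCC1937 and single-agent values came from a fit of all 24 libraries. SEs come from the fit and include the spread between libraries, while fold bounds against a group at 0 cover counting error only. Gene symbols are those of the deposited tables; spreadsheet-style dates in place of 27 symbols held 0.168% to 0.247% of counts and stayed in the totals. Coordinates are of GENCODE 29 on GRCh38, and promoters are of RefSeq on GRCh38.p14.

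Lists and members were chosen with earlier results of these data known. Named genes were the 12 most positive and 12 most negative differences among called protein-coding genes that averaged 2 CPM or more, the 8 most extreme of each kind of opposite response, the 4 members of each of 31 lists with the smallest p, and a panel of 18 genes; others are marked in the text. Alternatives were RLE scaling, no filter, a stricter filter (1 CPM in 3 libraries), DESeq2 1.42.0, all 24 libraries, the replicate block and leaving out each library; leaving out mitochondrial and ribosomal protein genes, and the interferon letters, were chosen after seeing the data. The test was run on simulated data first. No pairing of libraries by the letters A to C was detected, and the main fit used none. Some items that the rules would name are not reported here.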

Additional observations from a re-analysis of the deposited data

Results flagged for a closer look

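The responses of the lines to the same treatment differed, by the test of the difference itself, for 5591 genes; 331 of them rose in HCC38 and fell in HCC1395, and 295 fell in HCC38 and rose in HCC1395. The 8 genes with the greatest difference of each kind are given; their differences passed that test and their lines moved in opposite directions, as did those of other genes in the text, such as MX1, ALDH1A3, CDH2 and MSMO1. Those higher in HCC38, as log2 differences HCC38 minus HCC1395, were ACKR3 (6.43), CST6 (4.61), CXorf57 (4.49), RGS4 (4.07), NID2 (3.96), ILDR1 (3.95), TFPI2 (3.89) and SLC7A8 (3.56). Those lower were KCNK15 (-4.18), CYP26A1 (-4.04), HOXB3 (-3.95), KLK10 (-3.51), IFIT1 (-3.44), CP (-3.40), SAA1 (-3.14) and ANGPT1 (-3.08).

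Not all of these rest on counts in every group. ACKR3 had no count in HCC38 DMSO, CST6 and ILDR1 had at most 3 counts in HCC1395 COMBO, and KCNK15, CYP26A1 and HOXB3 had at most 3 counts in HCC1395 DMSO, so their fitted values depend on the prior count and are no bounds. Without HCC1395 DMSO library B, ILDR1 (3.29) and CST6 (4.18) were no longer called. The CST6 difference also lost its call without HCC1395 DMSO library A (4.64), without HCC1395 COMBO library A (4.54), B (4.55) or C (4.60), and in the fit of all 24 libraries (4.62). SAA1, an acute-phase gene, had 2.43, 1.90 and 1.05 CPM in HCC38 COMBO against 3.88, 4.39 and 2.94 CPM in HCC38 DMSO, and 2.12, 2.59 and 2.06 CPM in HCC1395 COMBO against 0.766, 0.435 and 0.370 CPM in HCC1395 DMSO. CXorf57 had 1.17, 1.21 and 1.52 CPM in HCC38 COMBO against 0.0849, 0.119 and 0.112 CPM in HCC38 DMSO, and 17.6, 17.6 and 21.8 CPM in HCC1395 COMBO against 36.2, 37.7 and 33.1 CPM in HCC1395 DMSO.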

How the results depend on the processing

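All 10 counts kept within 1.5 times their value under every alternative except the counts of opposite responses. Genes lower in HCC38 and higher in HCC1395 were 295, 464 in a fit of all 24 libraries, and 185 to 427 on leaving out single libraries; genes higher in HCC38 and lower in HCC1395 were 331, and 216 to 555 on leaving out single libraries. The cause was not tested. Differences called higher and lower were 2883 and 2541 with RLE scaling, 3126 and 2714 with DESeq2, 2827 and 2609 without a filter (which moved the median of all genes by -0.114), 3056 and 2405 with the stricter filter, 3594 and 3237 with all 24 libraries, 2699 and 2583 without mitochondrial and ribosomal protein genes, and 2269 to 3766 and 1909 to 2985 on leaving out single libraries. The replicate block gave 2831 higher and 2278 lower. Libraries of 1 letter showed no shared deviation within a line (correlations -0.059 to 0.086, against -0.136 to 0.122 for different letters). These values cannot show whether libraries of a letter were prepared together. The HCC1395 change of TMEM30B was -5.06, and -5.66 to 0.00 on leaving out single libraries, with 0.00 without HCC1395 DMSO library B, which held all its HCC1395 counts. Depth limits genes for which a group holds 3 counts or fewer in all.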

Other observations

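The HOXB cluster, chosen after its values were seen, was higher in HCC38 than in HCC1395 at the start. All 9 tested members were higher in HCC38 DMSO than in HCC1395 DMSO. Under the combination 1 rose and 1 fell in HCC38, against 7 rising in HCC1395, and 6 were lower in the difference (66.7%, against 12.6% of all genes). HOXB7 had 29.4, 31.7 and 28.7 CPM in HCC38 COMBO against 34.9, 37.6 and 31.6 CPM in HCC38 DMSO, and 15.4, 18.3 and 15.3 CPM in HCC1395 COMBO against 4.87, 5.05 and 4.13 CPM in HCC1395 DMSO (difference -2.02 ± 0.15, edgeR adjusted p = 7.37e-08). HOXB13 had 12.3, 10.4 and 9.77 CPM in HCC38 COMBO against 13.5, 12.9 and 12.2 CPM in HCC38 DMSO, and 2.48, 2.47 and 2.00 CPM in HCC1395 COMBO against 0.219, 0.696 and 0.655 CPM in HCC1395 DMSO (difference -2.41 ± 0.30). HOXB7 overlaps HOXB8 and HOXB9 on the same strand and an antisense gene, so its reads may be shared. HOXB2, at 39.7 CPM in HCC38 COMBO and 36.2 CPM in HCC38 DMSO, had 0 counts in HCC1395 COMBO, and its only counts in HCC1395 DMSO were in library B, at 0.145 CPM. Members at that level in HCC1395 thus rest on the traces in library B: without it the HOXB6 difference was -5.52, against -3.83 with it. Single agents in HCC1395, which share the DMSO libraries, gave HOXB7 changes of 1.36 ± 0.11 with the EZH2 inhibitor and 0.68 ± 0.12 with the AKT inhibitor.

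Genes of MHC class II, which present peptides to helper T cells, rose in both lines from low levels. Of 10 tested, 6 rose in HCC38 (median 0.91) and 7 rose in HCC1395 (median 1.53), with 3 lower (30.0%, against 12.6% of all genes; 1 lower without HCC38 DMSO library B) and 0 higher in the difference by edgeR (0 higher also by DESeq2 and at an unadjusted p under 0.05). CD74, the invariant chain gene, had 4.42, 2.88 and 2.37 CPM in HCC38 COMBO against 1.98, 2.31 and 1.90 CPM in HCC38 DMSO, and 7.95, 8.52 and 7.39 CPM in HCC1395 COMBO against 1.78, 1.77 and 2.13 CPM in HCC1395 DMSO (difference -1.42 ± 0.28, edgeR adjusted p = 0.00101). The EZH2 inhibitor alone raised 7 of the 10 in HCC1395 and the AKT inhibitor alone raised none. In HCC1937 the combination raised 8 (median 2.01). CXorf57 and SESN3 shared the opposite arrangement, with a rise in HCC38 from under 1 CPM while HCC1395 held 33.1 CPM or more in every DMSO library.

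Several other lists had similar counts of rising or falling genes in both lines, which does not mean that their members responded equally. Of 25 genes of ERK pathway output, 16 rose in HCC38 and 16 in HCC1395. In the difference 5 of the 25 were higher (20%, against 16.7% of all genes) and 10 lower (40.0%, against 12.6%). The lower count of this list was 10 in every setting. Of 16 AP-1 and immediate early genes, 10 rose in HCC38 and 12 in HCC1395, with 3 higher and 3 lower in the difference. Of 19 YAP-TEAD targets, 11 rose in HCC38 and 11 in HCC1395, with 4 higher and 1 lower in the difference. Of 17 hypoxia-inducible genes, 8 fell in HCC38 and 10 in HCC1395. In the difference 5 of the 17 were higher (29.4%, against 16.7% of all genes) and 1 lower (5.88%, against 12.6%). Over all settings, 3 to 7 YAP-TEAD targets and 4 to 7 hypoxia-inducible genes were called higher in the difference.

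The 13 protein-coding genes of the mitochondrial genome all missed the edgeR threshold in HCC38 (median 0.08), while all 13 rose in HCC1395 (median 0.62). In the difference 6 were lower (46.2%, against 12.6% of all genes). Mitochondrial genes took 5.91% ± 1.63 of counts in HCC38 COMBO and 5.56% ± 0.41 in HCC38 DMSO, and 6.2% ± 0.09 in HCC1395 COMBO and 3.85% ± 0.08 in HCC1395 DMSO (SD, n = 3 each). HCC38 COMBO library C held the highest share, 7.77%.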
